A study of Mus musculus with 8 samples.

Results

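The 32 genes described here encode proteins that bring fatty acids into heart muscle cells, oxidise them in mitochondria, or set the rate at which this happens. They were chosen by name, with earlier results of these data known. All 32 were found among the 37982 genes of the deposited mouse table. RNA had been sequenced from ventricles of C57BL/6 mice at postnatal day 7, after removal of the atria, in 3 triple mutant, 3 double mutant and 2 wild type samples. As known from the study, the double mutants had changed alleles of Mkl2 and Myh7, and the triple mutants had these and a changed allele of Nkx2-5. Mkl2 encodes a transcriptional coactivator that works with serum response factor. Myh7 is the slow myosin heavy chain gene, and Nkx2-5 is a homeodomain factor that cardiac muscle needs. The labels do not give the sex of the animals, nor whether a sample was 1 animal or a pool.

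Around birth the heart moves from glucose and lactate towards fatty acids as its main fuel. Lipoprotein lipase frees fatty acids from circulating triglyceride, transporters take them up, acyl-CoA synthetase activates them, and the carnitine shuttle carries the activated chain into mitochondria, a step that malonyl-CoA holds back. The beta-oxidation spiral then shortens the chain and hands its electrons to the respiratory chain, partly through the electron transfer flavoprotein. Many genes of this route are known targets of the nuclear receptor PPAR alpha.

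The table holds 1 level per gene and group in FPKM, a fragment count scaled by transcript length and library size, so a level has no replicate error and the depth of reading is unknown. A gene is called different where the q-value of the authors' Cuffdiff test was under 0.05. The error after a log2 fold change is the standard error that the deposited statistic implies, the fold change divided by the statistic. Nothing in the labels says that the samples came from separate litters, so the p-values do not reach beyond these samples. Which libraries entered the test is not stated. In bulk tissue, fewer cells of a type and less RNA per cell cannot be told apart.

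Of the 32 members, 28 were tested in all 3 comparisons, and 6 of those were called in at least 1: Slc25a20, Cpt2, Hadh, Etfb, Acot13 and Pdk4. The 250 bases before the transcription start are shown for the 5 of these 6 that matched a RefSeq entry by symbol, since they are the members whose transcript levels differed. The sequences are from RefSeq on build GRCm38.p6, each 5′ to 3′ on the strand of its gene. They lie at chr9:108661886-108662135 on the plus strand for Slc25a20, chr4:107923590-107923839 on the minus strand for Cpt2, chr3:131272102-131272351 on the minus strand for Hadh, chr7:43443822-43444071 on the plus strand for Etfb and chr6:5496279-5496528 on the minus strand for Pdk4. Capitals mark the GC box GGGCGG and the CCAAT box, each also in its reverse complement (CCGCCC and ATTGG).
Slc25a20: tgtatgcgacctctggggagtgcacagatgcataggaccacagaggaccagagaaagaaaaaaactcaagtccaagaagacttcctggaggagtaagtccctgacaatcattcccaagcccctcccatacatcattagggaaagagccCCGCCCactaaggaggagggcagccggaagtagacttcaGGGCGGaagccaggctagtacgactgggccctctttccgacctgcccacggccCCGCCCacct
Cpt2: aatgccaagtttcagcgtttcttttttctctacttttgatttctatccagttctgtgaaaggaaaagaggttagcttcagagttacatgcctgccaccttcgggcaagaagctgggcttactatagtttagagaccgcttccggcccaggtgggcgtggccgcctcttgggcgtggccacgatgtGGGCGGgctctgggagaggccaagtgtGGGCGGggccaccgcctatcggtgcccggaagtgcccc
Hadh: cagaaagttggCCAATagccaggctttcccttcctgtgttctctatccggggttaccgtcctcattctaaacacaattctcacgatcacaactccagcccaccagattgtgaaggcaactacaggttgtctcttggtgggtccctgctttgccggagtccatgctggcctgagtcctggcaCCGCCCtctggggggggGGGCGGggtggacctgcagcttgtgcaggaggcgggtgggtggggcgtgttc
Etfb: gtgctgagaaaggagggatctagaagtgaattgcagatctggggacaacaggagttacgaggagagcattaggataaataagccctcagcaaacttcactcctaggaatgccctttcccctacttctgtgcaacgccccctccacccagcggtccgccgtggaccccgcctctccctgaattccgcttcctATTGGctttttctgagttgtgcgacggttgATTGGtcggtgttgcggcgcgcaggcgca
Pdk4: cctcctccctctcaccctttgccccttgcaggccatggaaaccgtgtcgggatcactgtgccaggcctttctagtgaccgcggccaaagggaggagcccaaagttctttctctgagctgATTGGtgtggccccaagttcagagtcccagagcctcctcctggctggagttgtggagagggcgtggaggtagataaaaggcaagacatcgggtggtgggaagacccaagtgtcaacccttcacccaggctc

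The GC box occurred 3 times before Slc25a20, 2 times before Cpt2 and 2 times before Hadh, and at no place in the windows of Etfb and Pdk4. The CCAAT box occurred 2 times before Etfb and 1 time each before Hadh and Pdk4. Pdk4 was the member called lower, and its window shares the CCAAT box with Etfb and Hadh, which were called higher. Over the whole list, 26 members matched 30 windows, since some genes have more than 1 start. The GC box stood in 16 of these 30 windows (53.3%), against 32.7% of all 32851 RefSeq windows of this length. The CCAAT box stood in 13 (43.3%), against 33.8% of all. AGGTCA, the hexamer that nuclear receptors bind, or its reverse complement TGACCT, stood in 6 (20%), against 14% of all, in windows of Acadm, Acadvl, Cd36, Cpt1a, Echs1 and Ucp3 and in none of the 5 shown. The direct repeat AGGTCANAGGTCA contains that hexamer 2 times and is the consensus of the sites that PPAR alpha binds with its partner RXR. It was found on either strand in 0 of the 30 windows and in 0.0335% of all. A repeat this rare would seldom fall in 30 windows, so its absence says nothing about these members. A match describes letters in a short window and is not a binding site.

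These are highly expressed genes. The 28 tested members had a median level of 83.2 FPKM in the triple mutant, 91.9 FPKM in the double mutant and 75.2 FPKM in wild type, and 27 of them lay above 9.12 FPKM, the median of the 13775 genes with at least 1 FPKM in wild type. The upper 10% of those genes began at 46.4 FPKM in wild type and held 21 of the 28. The 4 untested members are central ones. Cd36, the fatty acid translocase of the cell surface, Fabp3, the fatty acid binding protein of heart, and Acadl, the long-chain acyl-CoA dehydrogenase, are listed at 0 in every group under a status for too many fragments to estimate. Hadha, the alpha subunit of the trifunctional protein, is listed at 0 in the triple mutant, 0 in the double mutant and 389 FPKM in wild type, all under that status, so no difference was taken from it. Where another gene has identical listed coordinates the locus is called shared, since reads may have been split there, and 6 of the 28 tested members lie in such a locus.

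**Figure D1:**
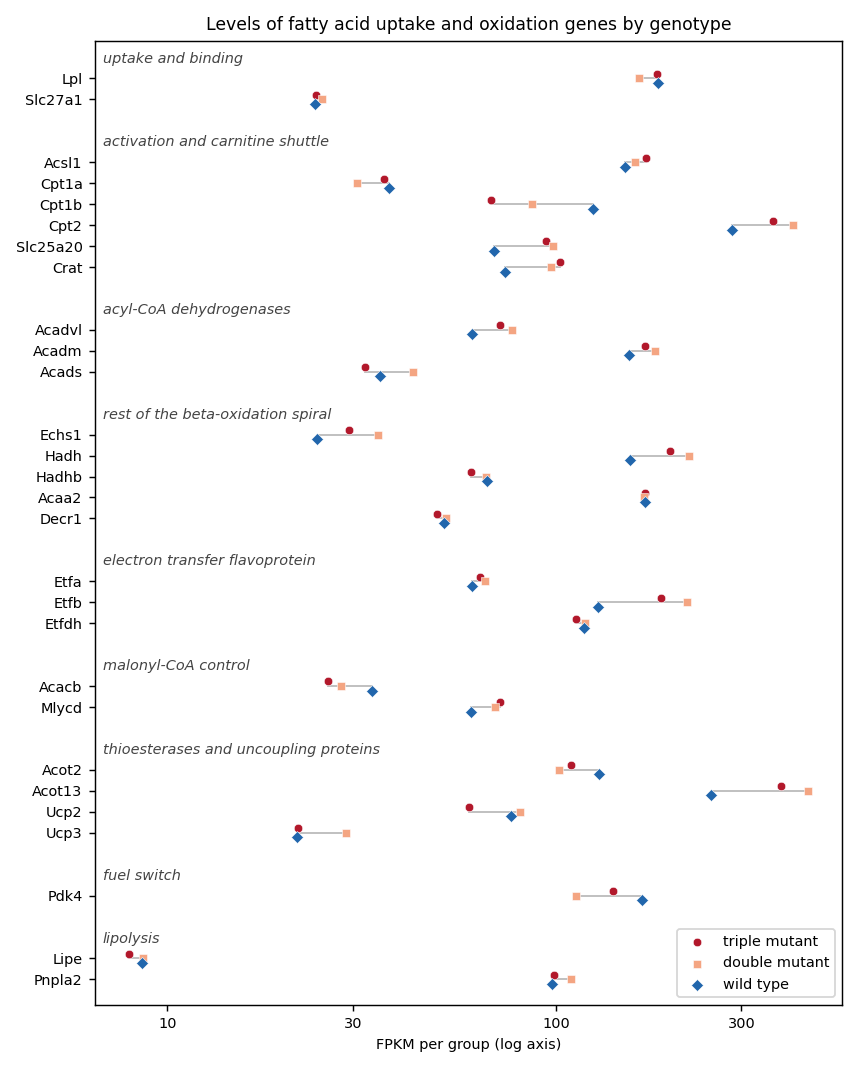
Level of each of the 28 tested members in FPKM on a log axis, 1 point per genotype, ordered by role. The genotypes lie close together for most members, while Acot13 (379.9, 446 and 251 FPKM in triple mutant, double mutant and wild type) and Cpt1b (68.2, 86.6 and 124 FPKM) are spread widely.

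The tissue was set against markers of cell types. All 10 cardiomyocyte markers carry the status for too many fragments, so their levels were not measured. Adipocytes also use some of the genes described here. Of 9 adipocyte markers 7 were below 1 FPKM in every group and 4 were at 0. The list summed to 19.2 FPKM in the triple mutant, 19.98 FPKM in the double mutant and 18.2 FPKM in wild type. Nearly all of that sum came from Cidea and Lipe, and Lipe is also a member of the list described here. Of 10 skeletal muscle markers 9 were below 1 FPKM in every group, and 5 were at 0. The remaining marker, Acta1, carries the status for too many fragments and was not measured. The 7 macrophage markers found summed to 41.2 FPKM in the triple mutant, 43.0 FPKM in the double mutant and 42.6 FPKM in wild type. Fibroblast markers, 2 of 8 of them not estimated, summed to 513 FPKM in the triple mutant, 631 FPKM in the double mutant and 544 FPKM in wild type. The 10 endothelial markers summed to 649.7 FPKM in the triple mutant, 786 FPKM in the double mutant and 746 FPKM in wild type. The 4 Y-linked genes summed to 54.2 FPKM in the triple mutant, 73.7 FPKM in the double mutant and 21.9 FPKM in wild type. Of these, Ddx3y was called higher in each mutant against wild type and Uty in the double mutant (q = 0.0066 each by Cuffdiff). The part of sex in the differences below was not tested.

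The triple mutant was compared with wild type to find genes regulated differently in the diseased heart. Acot13, Etfb and Slc25a20 were called higher and no member was called lower. The 3 called higher are 10.7% of the 28 tested, against 1.16% of all 12986 genes tested, and the 0 called lower stand against 0.362%. Since the members were chosen with earlier results known, this share and those that follow describe the list and do not test it. In the upper 10% of wild type levels, 3 of 21 members (14.3%) were called higher, against 3.37% of 1336 genes. An unadjusted p under 0.05 was listed for 7 of 28 members (25%), the 3 called among them, against 12.1% of all genes tested. The list as a whole did not lie far from the other genes, with 16 positive and 12 negative log2 fold changes and a median of 0.0075, against -0.0033 for all tested genes. Endothelial markers were negative in 8 of 10 cases in this comparison, with a median of -0.23 and 0 called. Fibroblast markers were negative in 5 of the 6 tested, with a median of -0.075 and 0 called. Macrophage markers were negative in 3 of the 6 tested, with a median of -0.024 and 0 called. The part of these cell types in the members' values was not tested.

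The triple and double mutants were compared to find genes that depend on the Nkx2-5 modifier. None of the 28 members was called by Cuffdiff, 0 against 1.25% of 12786 genes tested in either direction. At the authors' own q limit of 0.1 the count was also 0, against 1.98% of genes, and among the upper 10% of wild type levels it was 0 of 21, against 2.57%. Without adjustment 3 members (Ucp3, Pdk4 and Ucp2) had a p under 0.05, which is 10.7% of the 28 and close to the 8.45% of all genes tested. Log2 fold changes were negative for 20 members and positive for 8, with a median of -0.096, against -0.0011 for all tested genes. Endothelial markers were negative in 9 of 10 cases here, with a median of -0.25 and Aqp1 called lower, and all 6 tested fibroblast markers were negative, with a median of -0.30. Macrophage markers were negative in 3 of the 6 tested, with a median of -0.066 and 0 called. The part of these cell types in the members' values was not tested.

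The double mutant was compared with wild type as well. Acot13, Etfb, Cpt2, Hadh and Slc25a20 were called higher and Pdk4 was called lower. The 5 called higher are 17.9% of the 28, against 1.89% of all 13034 genes tested, and the 1 called lower is 3.57%, against 0.767%. In the upper 10% of wild type levels, 5 of 21 members (23.8%) were called higher, against 5.82% of 1357 genes. An unadjusted p under 0.05 was listed for 10 of 28 (35.7%), the 6 called among them, against 16.3% of all genes tested. Of the 28 log2 fold changes 20 were positive, with a median of 0.10, against -0.0040 for all tested genes. All 6 tested fibroblast markers were positive here, with a median of 0.18 and 0 called. Endothelial markers were positive in 5 cases and negative in 5, with a median of 0.0068 and 0 called. Macrophage markers were positive in 4 of the 6 tested, with a median of 0.16 and 0 called. The part of these cell types in the members' values was not tested. The 3 comparisons share groups with each other, so their values are given side by side and do not support each other.

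All of these calls rest on the deposited p-values. For 99.7% of tested values the deposited p is smaller than the normal tail of the deposited statistic. With p-values taken from that tail, 0 members were called in any comparison. Over all genes, 5 (0.0385%) were then called for the triple mutant with wild type, 4 (0.0313%) for the triple with the double mutant, and 9 (0.0691%) for the double mutant with wild type.

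**Figure D2:**
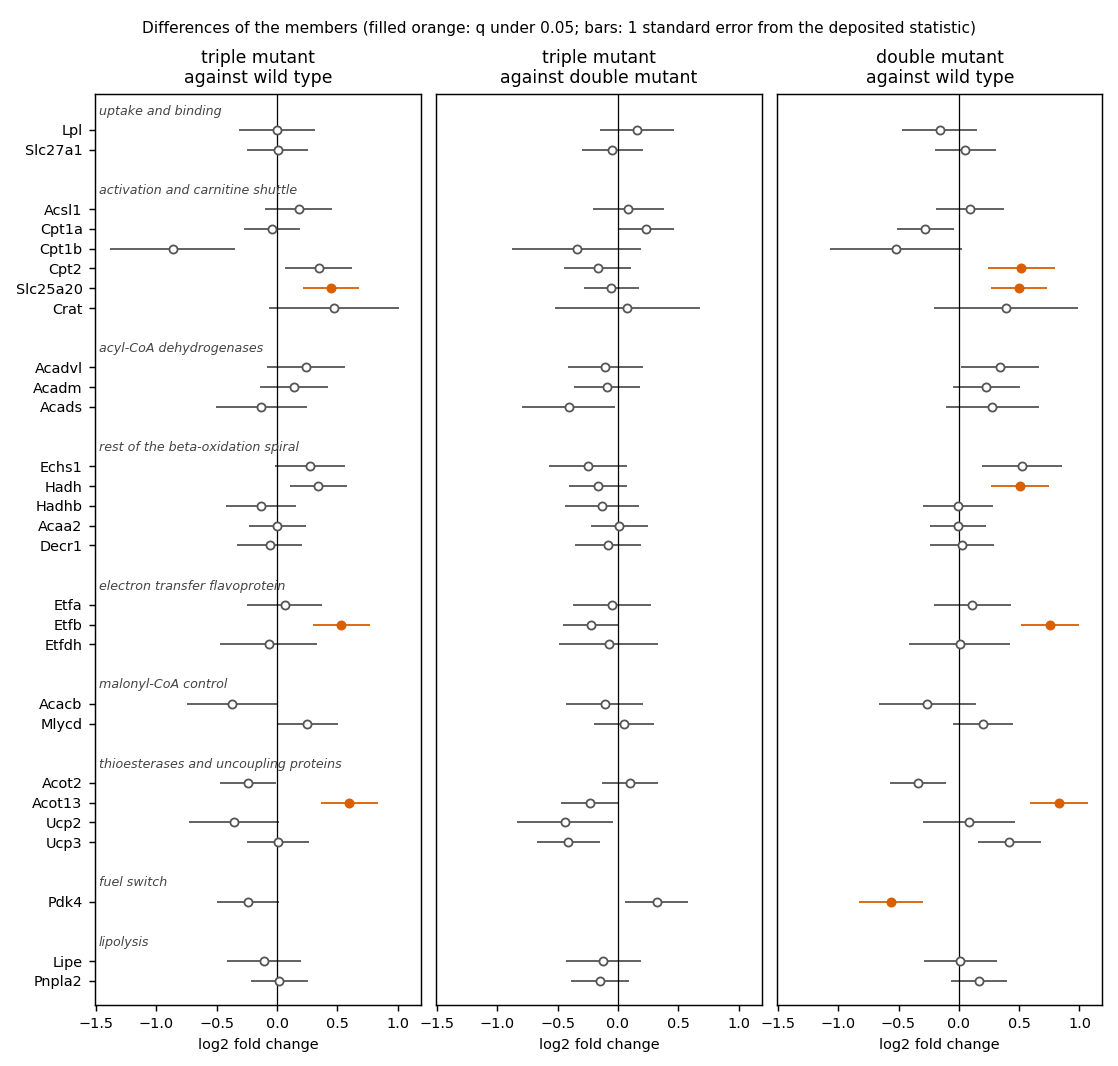
Log2 fold change of each tested member in the 3 comparisons (panels), with bars of 1 standard error from the deposited statistic, and members called at q under 0.05 in orange. Called members are on the right for Acot13, Etfb and Slc25a20 in both comparisons with wild type and for Cpt2 and Hadh in the double mutant, on the left for Pdk4 in the double mutant, and there is none between triple and double mutant.

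No uptake gene was called where a level could be estimated. Lpl, the lipase that frees fatty acids from lipoproteins at the vessel wall, was listed at 182 FPKM in the triple mutant, 164 FPKM in the double mutant and 183 FPKM in wild type. The authors' deposited table puts it at a log2 fold change of -0.0013 ± 0.31 for triple mutant against wild type (q = 0.998). Slc27a1, a fatty acid transport protein with acyl-CoA synthetase activity, was listed at 24.1 FPKM in the triple mutant, 24.96 FPKM in the double mutant and 24.0 FPKM in wild type. The 3 genotypes lay close together for Slc27a1, and the double mutant was the lowest for Lpl, by less than its error. Cd36 and Fabp3 remain unmeasured.

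The activation step and the carnitine shuttle held called rises and, without a call, the most negative fold change of the list. Slc25a20 (ENSMUSG00000032602, mm9 chromosome 9, 108564429 to 108586972), the carrier that exchanges acylcarnitine for carnitine across the inner membrane, was listed at 94.5 FPKM in the triple mutant, 98.1 FPKM in the double mutant and 69.3 FPKM in wild type. It rose 1.36-fold in the triple mutant (log2 0.45 ± 0.23, q = 0.0398) and 1.42-fold in the double mutant (log2 0.50 ± 0.23, q = 0.0114) against wild type in the authors' deposited table. For the triple mutant the 95% interval of the log2 fold change ran from -0.0083 to 0.90. The mutants lay close together, at -0.05 ± 0.23 for triple against double in the authors' deposited table (q = 0.954).

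Cpt2 (ENSMUSG00000028607, mm9 chromosome 4, 107576586 to 107596215), which rebuilds acyl-CoA inside the inner membrane, was listed at 361 FPKM in the triple mutant, 406 FPKM in the double mutant and 284 FPKM in wild type. Its rise of 1.43-fold in the double mutant was called in the authors' deposited table (log2 0.52 ± 0.28, q = 0.0479), just inside the limit. The authors' deposited table gives 0.35 ± 0.28 between the triple mutant and wild type (q = 0.316), and -0.17 ± 0.28 between the mutants, triple over double (q = 0.772), so the mutants are not shown to differ.

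Cpt1b, the muscle form of the outer membrane enzyme that malonyl-CoA inhibits, ran the other way. It was listed at 68.2 FPKM in the triple mutant, 86.6 FPKM in the double mutant and 124 FPKM in wild type, the most negative log2 fold change of any tested member in the triple mutant. With an error of 0.52 its log2 fold change of -0.87 against wild type was not called in the authors' deposited table (p = 0.0039, q = 0.115), and the double mutant stood at -0.52 ± 0.55 (q = 0.536). Cpt1b shares its listed locus with Chkb, a choline kinase gene, which was listed at 11.7 FPKM in the triple mutant, 11.2 FPKM in the double mutant and 10.3 FPKM in wild type, so its reads are uncertain. Cpt1a, the liver form that is also used by the newborn heart, was listed at 36.2 FPKM in the triple mutant, 30.8 FPKM in the double mutant and 37.3 FPKM in wild type. In the listed levels Cpt1b stood above Cpt1a in every genotype. FPKM is scaled by length, but the uncertain reads of Cpt1b limit this comparison.

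Acsl1, the main long-chain acyl-CoA synthetase of heart, was listed at 169.9 FPKM in the triple mutant, 160.0 FPKM in the double mutant and 150.2 FPKM in wild type, and none of its comparisons was called. Crat, the carnitine acetyltransferase that buffers acetyl-CoA, was listed at 103 FPKM in the triple mutant, 97.3 FPKM in the double mutant and 74.0 FPKM in wild type. Its error was the widest of the list, and a log2 fold change of 0.47 ± 0.54 between triple mutant and wild type was not called in the authors' deposited table (q = 0.56). Crat shares its locus with Dolpp1.

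The acyl-CoA dehydrogenases, which open each turn of the spiral, were not called in any comparison. Acadvl, for very long chains, was listed at 71.9 FPKM in the triple mutant, 77.2 FPKM in the double mutant and 60.9 FPKM in wild type, in a locus shared with Dvl2. Acadm, for medium chains, was listed at 169 FPKM in the triple mutant, 180.1 FPKM in the double mutant and 154 FPKM in wild type. Acads, for short chains, was listed at 32.2 FPKM in the triple mutant, 42.8 FPKM in the double mutant and 35.2 FPKM in wild type. In each of the 3 the double mutant was highest, and the q-values in the authors' deposited table for double mutant against wild type ran from 0.48 for Acadvl to 0.701 for Acads.

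In the remaining steps of the spiral 1 member was called. Hadh (ENSMUSG00000027984, mm9 chromosome 3, 130936337 to 130975019), the dehydrogenase for medium and short 3-hydroxyacyl chains, was listed at 196 FPKM in the triple mutant, 219.8 FPKM in the double mutant and 155 FPKM in wild type. It rose 1.42-fold in the double mutant in the authors' deposited table (log2 0.51 ± 0.24, q = 0.0244). The triple mutant stood at 0.34 ± 0.24 against wild type in the authors' deposited table (q = 0.211) and at -0.17 ± 0.24 against the double mutant (q = 0.728). Hadh was therefore highest in the double mutant, with the triple mutant between it and wild type.

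Echs1, the short-chain enoyl-CoA hydratase, had the same order without a call, at 29.3 FPKM in the triple mutant, 34.8 FPKM in the double mutant and 24.3 FPKM in wild type. Its log2 fold change of 0.52 ± 0.33 in the double mutant matched that of Hadh in size, with a wider error, and q was 0.16 in the authors' deposited table. Hadhb, the thiolase subunit of the trifunctional protein, was listed at 60.3 FPKM in the triple mutant, 66.0 FPKM in the double mutant and 66.3 FPKM in wild type. Its gene lies 85 bases from Hadha on chromosome 5 in mm9, and the Hadha level was not estimated. Acaa2, the mitochondrial thiolase for shorter chains, was listed at 169 FPKM in the triple mutant, 168 FPKM in the double mutant and 169 FPKM in wild type. For Acaa2 the 95% interval of the log2 fold change for triple mutant against wild type ran from -0.46 to 0.46. Decr1, the dienoyl-CoA reductase needed for unsaturated chains, was listed at 49.3 FPKM in the triple mutant, 52.2 FPKM in the double mutant and 51.4 FPKM in wild type. Within the spiral, fold changes thus ran from near 0 for Acaa2 and Decr1 to the called rise of Hadh.

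The electron transfer flavoprotein is a pair of subunits with its own dehydrogenase, and only the beta subunit was called. Etfb (ENSMUSG00000004610, mm9 chromosome 7, 50699478 to 50713170) was listed at 186 FPKM in the triple mutant, 217 FPKM in the double mutant and 128 FPKM in wild type. In the triple mutant it rose 1.45-fold against wild type in the authors' deposited table (log2 0.53 ± 0.24, q = 0.0066), and in the double mutant 1.69-fold (log2 0.75 ± 0.24, q = 0.0066). Triple against double stood at -0.22 ± 0.24 in the authors' deposited table (q = 0.521). Etfa, the alpha subunit, was listed at 63.6 FPKM in the triple mutant, 65.7 FPKM in the double mutant and 60.8 FPKM in wild type. Etfdh, which passes the electrons to ubiquinone, was listed at 113 FPKM in the triple mutant, 119 FPKM in the double mutant and 118 FPKM in wild type. Etfa and Etfdh were not called, and whether Etfb differs from its partners in its response was not tested.

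The thioesterases and uncoupling proteins held the largest rise of the list. Acot13 (ENSMUSG00000006717, mm9 chromosome 13, 24909817 to 24923386), a thioesterase that cleaves long acyl-CoA and is found at mitochondria, was listed at 379.9 FPKM in the triple mutant, 446 FPKM in the double mutant and 251 FPKM in wild type. It rose 1.51-fold in the triple mutant (log2 0.60 ± 0.24, q = 0.0066) and 1.78-fold in the double mutant (log2 0.83 ± 0.24, q = 0.0066) against wild type in the authors' deposited table. The difference between triple and double mutant, -0.23 ± 0.24, was not called in the authors' deposited table (q = 0.511).

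Acot2, the thioesterase of the mitochondrial matrix, was listed at 109.5 FPKM in the triple mutant, 102 FPKM in the double mutant and 129 FPKM in wild type, the opposite order to Acot13. No difference was called for it, the lowest q in the authors' deposited table being 0.191 for double mutant against wild type. Acot1, a near-identical copy of Acot2, was listed at 48.1 FPKM in the triple mutant, 32.04 FPKM in the double mutant and 45.1 FPKM in wild type, and reads may have been split between the copies. Ucp3, the uncoupling protein of muscle, was listed at 21.7 FPKM in the triple mutant, 28.9 FPKM in the double mutant and 21.6 FPKM in wild type. Its log2 fold change for triple against double, -0.41 ± 0.26, had the lowest p of the list in that comparison in the authors' deposited table (p = 0.00665, q = 0.153). Ucp2, its widely expressed relative, was listed at 59.6 FPKM in the triple mutant, 80.7 FPKM in the double mutant and 76.4 FPKM in wild type, with -0.44 ± 0.40 for triple against double in the authors' deposited table (q = 0.372). The uncoupling protein genes are neighbours, 6904 bases apart on chromosome 7 in mm9, and neither was called.

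Pdk4 (ENSMUSG00000019577, mm9 chromosome 6, 5433351 to 5446309), the kinase that shuts off pyruvate dehydrogenase when fatty acids are burned, was the member called lower. It was listed at 141 FPKM in the triple mutant, 113 FPKM in the double mutant and 166 FPKM in wild type. The double mutant was 1.48-fold lower than wild type in the authors' deposited table (log2 -0.56 ± 0.26, q = 0.0066). The triple mutant lay between, at -0.24 ± 0.26 against wild type in the authors' deposited table (q = 0.541) and 0.32 ± 0.26 against the double mutant (p = 0.0237, q = 0.29). In the double mutant, Pdk4 thus fell while Slc25a20, Cpt2, Hadh, Etfb and Acot13 rose.

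The malonyl-CoA pair sets the brake on carnitine transfer. Acacb, the acetyl-CoA carboxylase that makes malonyl-CoA at mitochondria, was listed at 26.0 FPKM in the triple mutant, 28.0 FPKM in the double mutant and 33.6 FPKM in wild type, in a locus shared with Gm13784. Mlycd, the decarboxylase that removes malonyl-CoA, was listed at 71.9 FPKM in the triple mutant, 69.5 FPKM in the double mutant and 60.4 FPKM in wild type. Against wild type the enzymes had opposite signs in triple mutants in the authors' deposited table, at -0.37 ± 0.37 for Acacb (q = 0.276) and 0.25 ± 0.25 for Mlycd (q = 0.504), and neither was called.

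No gene for lipolysis of stored triglyceride was called. Pnpla2, adipose triglyceride lipase, was listed at 98.7 FPKM in the triple mutant, 109.4 FPKM in the double mutant and 97.5 FPKM in wild type. Lipe, hormone-sensitive lipase, was listed at 7.98 FPKM in the triple mutant, 8.68 FPKM in the double mutant and 8.599 FPKM in wild type, the lowest tested levels of the list.

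Lists of neighbouring pathways were read in the same way. Among 20 nuclear regulators, of which 17 were tested, Ppara was the only one called, lower in the triple mutant than in wild type. Of all genes tested in that comparison 0.362% were called lower. Ppargc1a and Esrrg carry the status for too many fragments and were not measured, and Hnf4a was at 0 in every group. An unadjusted p under 0.05 was listed for 3 of the 17 in the triple mutant over wild type. The count was 5 in the triple over the double mutant and 3 in the double mutant over wild type. The shares of all genes tested were 12.1%, 8.45% and 16.3%. Ppara, which encodes PPAR alpha, was listed at 7.37 FPKM in the triple mutant, 9.68 FPKM in the double mutant and 12.3 FPKM in wild type, 1.67-fold lower in the triple mutant than in wild type in the authors' deposited table (log2 -0.74 ± 0.46, q = 0.0244). Ncor1, a corepressor and the highest of the list in wild type, was listed at 194 FPKM in the triple mutant, 172 FPKM in the double mutant and 196 FPKM in wild type. The median log2 fold change of the regulators was -0.05 in the triple mutant over wild type, -0.25 in the triple over the double mutant and 0.10 in the double mutant over wild type, against -0.0033, -0.0011 and -0.0040 for all genes tested. Ppara was thus called lower in the triple mutant than in wild type, where 3 of the 28 tested members were called higher. Of those 28 members, 16 had positive and 12 negative log2 fold changes, with Cpt1b the most negative at -0.87 and not called. A link between Ppara and the members was not tested.

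The list of 30 other mitochondrial oxidation enzymes also holds Acot7, which is cytosolic. Of the 30, 24 were tested for triple mutant against wild type, with 2 called higher and 0 lower. For double mutant against wild type 25 were tested, with 3 called higher, Acot7 among them, and 0 lower. The shares of all genes tested were 1.16% higher and 0.362% lower in the former comparison, and 1.89% and 0.767% in the latter. For triple against double mutant 0 of 24 were called higher and 1, Acot7, lower, against 0.704% and 0.547% of all genes tested. Mcee, methylmalonyl-CoA epimerase, was listed at 92.0 FPKM in the triple mutant, 110.0 FPKM in the double mutant and 54.2 FPKM in wild type, and rose 1.70-fold in the triple mutant and 2.03-fold in the double mutant (q = 0.0066 each in the authors' deposited table). Hsd17b10, a short-chain dehydrogenase that is also part of mitochondrial RNase P, rose 1.64-fold in triple mutants (20.4 FPKM, against 12.5 FPKM in wild type), with q = 0.0321 in the authors' deposited table. Hibch, of valine breakdown and in a shared locus, rose 1.57-fold in the double mutant in the authors' deposited table (17.6 FPKM, against 11.2 FPKM in wild type, q = 0.0398). Acot7, a cytosolic thioesterase in a shared locus, was listed at 19.9 FPKM in the triple mutant, 29.1 FPKM in the double mutant and 17.4 FPKM in wild type. It was 1.47-fold lower in the triple than in the double mutant (q = 0.038) and 1.67-fold higher in the double mutant than in wild type (q = 0.0066) in the authors' deposited table. Pccb, a propionyl-CoA carboxylase subunit and the highest of the list in wild type, was listed at 49.0 FPKM in the triple mutant, 50.8 FPKM in the double mutant and 57.0 FPKM in wild type. Pccb acts on the propionyl-CoA that odd chains and some amino acids leave, and Mcee acts on methylmalonyl-CoA further along that route.

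Triglyceride storage held genes called between the mutants. G0s2, an inhibitor of Pnpla2, was listed at 64.4 FPKM in the triple mutant, 106 FPKM in the double mutant and 55.8 FPKM in wild type. It was 1.65-fold lower in the triple than in the double mutant and 1.90-fold higher in the double mutant than in wild type (q = 0.0066 each in the authors' deposited table). Dgat2, which makes the last bond of triglyceride, was listed at 26.7 FPKM in the triple mutant, 37.9 FPKM in the double mutant and 29.2 FPKM in wild type, 1.42-fold lower in the triple than in the double mutant in the authors' deposited table (q = 0.0356). These 2 of 20 genes tested between the mutants were called lower and 0 higher, against 0.547% and 0.704% of all genes tested. For double mutant against wild type 1 of 19 was called higher and 0 lower, against 1.89% and 0.767%. Agpat3, an acyltransferase of phospholipid and triglyceride synthesis and the highest of the list in wild type, was listed at 139 FPKM in the triple mutant, 137 FPKM in the double mutant and 104 FPKM in wild type, in a shared locus. Pnpla2 itself was called in no comparison, as given above.

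Peroxisomal oxidation had 1 gene called higher among 20 tested for double mutant against wild type, against 1.89% of all genes tested. Phyh, the hydroxylase that starts alpha-oxidation of phytanic acid, was listed at 223 FPKM in the triple mutant, 291 FPKM in the double mutant and 209 FPKM in wild type, and rose 1.39-fold in the double mutant in the authors' deposited table (q = 0.0356). Oxct1, which starts ketone body use, was listed at 226 FPKM in the triple mutant, 204 FPKM in the double mutant and 179.5 FPKM in wild type, and was not called.

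Pyruvate dehydrogenase is the enzyme that Pdk4 inhibits. Of all genes tested, 1.16% were called higher in the triple mutant over wild type and 1.89% in the double mutant over wild type. Among 11 tested genes of the pyruvate dehydrogenase list Pdhb, a subunit of the enzyme's first component, was called in each comparison with wild type. It was listed at 109.9 FPKM in the triple mutant, 113 FPKM in the double mutant and 66.3 FPKM in wild type, and rose 1.66-fold in the triple mutant and 1.70-fold in the double mutant (q = 0.0066 each in the authors' deposited table). Pdha1, its partner subunit, was listed at 489.8 FPKM in the triple mutant, 530.1 FPKM in the double mutant and 512 FPKM in wild type, in a shared locus, and was not called. Other uptake and binding (13 to 14 tested) and fatty acid synthesis (16 tested) had 0 genes called by Cuffdiff in any comparison. Of all genes tested, 1.52% were called in the triple mutant over wild type, 1.25% in the triple over the double mutant and 2.65% in the double mutant over wild type. At an unadjusted p under 0.05 the uptake list had 3 genes in the triple mutant over wild type, 3 in the triple over the double mutant and 4 in the double mutant over wild type. The synthesis list had 0, 1 and 3 in the same order of comparisons, and the shares of all genes tested were 12.1%, 8.45% and 16.3%. Cav1, of caveolae, was highest of the uptake list, at 415 FPKM in the triple mutant, 495 FPKM in the double mutant and 448 FPKM in wild type, and Scd2, a fatty acid desaturase, of the synthesis list, at 67.0 FPKM in the triple mutant, 60.3 FPKM in the double mutant and 59.7 FPKM in wild type. Both loci are shared.

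**Figure D3:**
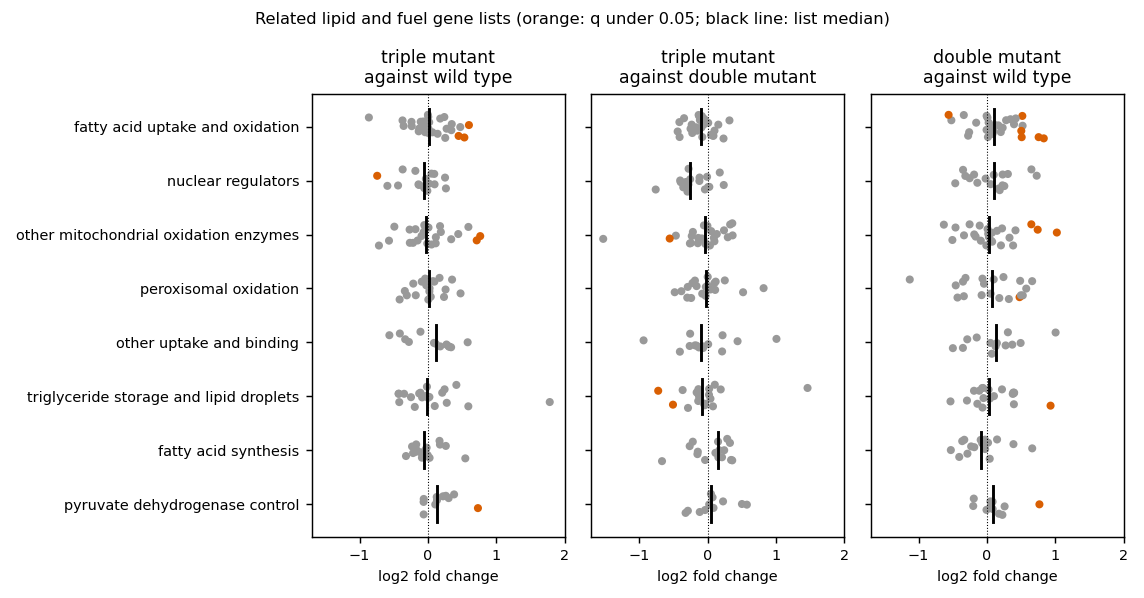
Log2 fold change of every tested gene of the oxidation list and of 7 neighbouring lists in the 3 comparisons, with a black line at each median. The oxidation list has medians of 0.0075, -0.096 and 0.10 for the triple mutant over wild type, the triple over the double mutant and the double mutant over wild type, and the nuclear regulators -0.05, -0.25 and 0.10.

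The called members differ in transcript length, and length moved with the fold changes of all genes. The shortest of 8 length bins had a median log2 fold change of 0.077 in the triple mutant over wild type and 0.076 in the double mutant over wild type, and the longest bin -0.073 and -0.096. Acot13, with a longest transcript of 721 bases, and Etfb, with 893 bases, are in the shortest bin. Measured from the median of their bin, Acot13 stood at 0.52 and 0.75 and Etfb at 0.45 and 0.68 in the same pair of comparisons. The part of length in these rises was not tested. Cpt2 (2372 bases), Slc25a20 (2751 bases), Pdk4 (3484 bases) and Hadh (3751 bases) lie in bins whose medians are within 0.046 of 0.

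**Figure D4:**
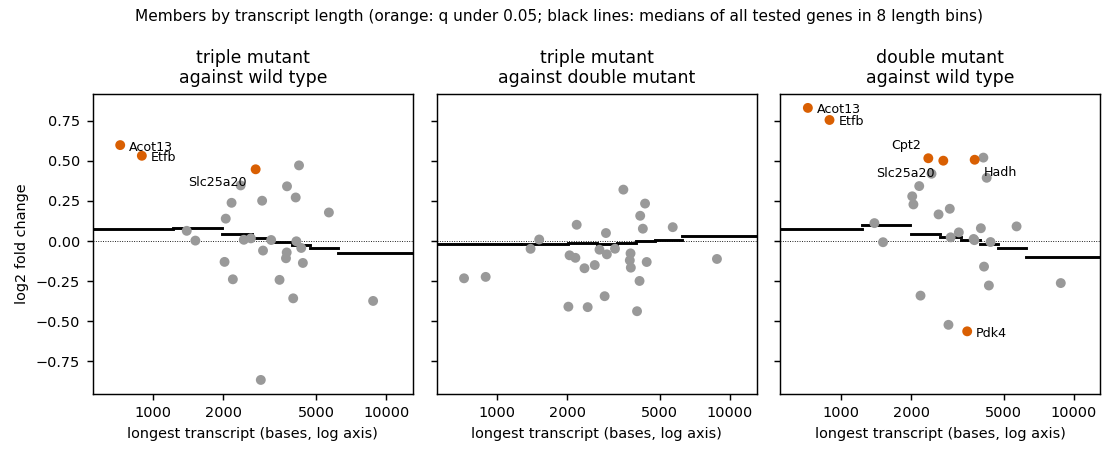
Log2 fold change of the tested members against the length of their longest transcript in bases (log axis) in the 3 comparisons, with the median of all tested genes in each of 8 length bins. Acot13 and Etfb stand above the bin medians in both comparisons with wild type.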

How the data were processed

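Total RNA from P7 ventricles had been made into stranded libraries, per the labels' protocols. CASAVA 1.8, STAR 2.5.2, Cufflinks 2.2.1, Cuffdiff 2.2.1 and build mm9 are named in the submitters' processing notes; the sources used here do not name the annotation. The authors deposited Cuffdiff's gene output: 1 FPKM per gene and group, and for each of 3 comparisons a log2 fold change, a test score (the statistic), a p-value and a q-value. The q-values the authors deposited were checked to be Benjamini-Hochberg values over all 3 comparisons at once; the lowest p is 5e-05 and the lowest q 0.0066. FPKM keeps no depth. Without values per sample no new test was run. Estimates that failed for too many fragments were treated as missing (709 genes).

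Standard errors, 95% intervals, medians and length bins were computed in Python 3.11.15 with pandas 2.3.3, numpy 2.4.6 and scipy 1.17.1. Of this code, only the adjustment of p-values was checked on simulated data. Lengths are from GENCODE M21, by gene ID. Loci are given from base 1. All 32 members were named; of each other list, genes with q under 0.05 and the gene highest in wild type. The result of 1 such gene is left out. Members and lists were chosen with earlier results of these data known. Alternatives were other adjustments, thresholds, scalings, FPKM minimums of 1 and 5, a pseudocount of 1 and leaving out shared loci.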

Additional observations from a re-analysis of the deposited data

How the results depend on the processing

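The counts of called members (3 in the triple mutant over wild type, 0 in the triple over the double mutant and 6 in the double mutant over wild type) came out the same with adjustment within a comparison, at the authors' q limit of 0.1, with FPKM minimums of 1 and 5 and without shared loci. With p-values from the normal tail of the deposited statistic, chosen after seeing the data, they were 0, 0 and 0; the z-value that matches the deposited p is a median 1.77 times the statistic, and the cause was not tested. The members' median log2 fold change for triple mutant against wild type was close to 0 and changed sign, to -0.018, when centred by length bin, also chosen after seeing the data. It lay between 0.0072 and 0.046 under the other scalings and filters. For triple against double mutant the median ran from -0.096 to -0.047, and for double mutant against wild type from 0.091 to 0.14. Lpl in triple mutant against wild type changed sign to 0.0021 when centred on all tested genes. No paired analysis was possible because the table holds 1 value per group, and for the same reason no sample could be left out in turn. The sample descriptions hold a prefix that may mark a batch, and no value here can be split by it. Depth is unknown, and errors of 0.23 to 0.60 on the log2 scale limit what could be called.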
